A study of Mus musculus with 11 samples.

Results

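The 10 genes described here belong to lipid storage and fatty acid use. They are Plin2, Plin3 and Hilpda at the lipid droplet, Acsl1, Dgat1 and Dgat2 in triglyceride synthesis, Pnpla2 in lipolysis, Cpt1a in fatty acid oxidation, and the nuclear receptors Pparg and Ppard. They were taken by name, and the RefSeq accessions of the array probes were matched to gene symbols. All 10 had a matched probe, 14 probes in all, and all 10 passed the filter on dim probes. The whole array gave 23329 genes with a matched probe, of which 19565 were tested.

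RNA of mouse microglia, the macrophages of the brain, was measured on 11 single-colour Agilent arrays. All mice were C57BL/6N. Adult microglia (A_FACS, 2 arrays) came from female mice aged 12 to 24 weeks, and newborn microglia (NB_FACS, 3 arrays) from pups of both sexes at postnatal days 1 to 3. Both were sorted by flow cytometry on intermediate CD45 and high CX3CR1 and were used without culture. The cultured groups came from newborn brain cells of the same strain and age that had grown as mixed glia in flasks fed with 20% medium conditioned by L-929 fibroblasts, each flask seeded from several pooled brains. Their microglia were shaken off on day 18 or later, up to day 34, and were then kept for 1 day in DMEM/F12 with 10% fetal bovine serum. NB_Control (3 arrays) received nothing further, while NB_Stim (3 arrays) received human TGF-β1, IL-34 and CX3CL1 together at 100 ng/mL each. The 3 cytokines were not given singly on these arrays, and the cultured groups differed from NB_FACS in isolation method and time in the flask as well as in culture. A_FACS and NB_FACS differed in sex composition as well as in age, and these cannot be told apart.

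Cells store fatty acids as triglycerides and sterol esters in lipid droplets, which are coated by perilipins. Fatty acids are first joined to coenzyme A by acyl-CoA synthetases, the last step of triglyceride synthesis is carried out by the DGAT enzymes, and ATGL, encoded by Pnpla2, starts the breakdown. CPT1A passes long-chain fatty acids to the carnitine shuttle and so to oxidation in mitochondria, and the PPAR receptors are lipid-sensing transcription factors that control many of these genes. In microglia and other macrophages, droplets are known to accumulate in lipid-rich and inflamed settings.

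The share of probes well above background ran from 66.8% to 80.5% over the arrays. Slide 2 carried NB_FACS, NB_Control and NB_Stim replicate 3 and was brighter (75th percentile of the signal 444 to 507) than slide 1 with the other 8 arrays (174 to 315). All 9 microglia markers with a probe were above background on every array. Markers of other cells were also seen: 7 erythroid genes had a summed level (log2 of the summed intensity) of 17.2 to 17.6 in NB_FACS, 13.1 to 14.6 in A_FACS and 7.79 to 8.32 in the cultured groups. The summed level of 8 fibroblast genes was 11.2 in NB_FACS, 12.6 to 13.1 in A_FACS and 14.7 to 15.8 in culture. The erythroid genes Hbb-bt in both cultured groups and Alas2 in NB_Control, and the fibroblast genes Col3a1 and Lum in A_FACS, were above background on 0 arrays. Of the 8 fibroblast genes, 5 were lower and 2 higher past the test in A_FACS than in NB_FACS. The higher genes were Tagln (log2 difference 2.71) and Acta2 (2.15). Astrocyte markers lay at 8.62 to 11.01, neutrophil markers at 7.52 to 12.3, oligodendrocyte markers at 8.82 to 9.79, neuron markers at 10.7 to 12.5 and endothelial markers at 9.98 to 13.7 over all arrays. Of the 6 adipocyte markers only Retn, Plin1 and Cidec could be tested, and their summed level stayed between 6.96 and 7.52 on all arrays. In bulk RNA fewer cells of a type and less RNA per cell cannot be told apart.

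Plin2, Plin3 and Hilpda were lower in adult than in newborn sorted cells, and Pparg was higher in unstimulated culture than in any other group. In A_FACS against NB_FACS, 7 of the 10 genes passed the test: Plin2, Plin3, Hilpda, Cpt1a and Pparg fell and Pnpla2 and Acsl1 rose. Over all genes tested 22.7% passed in that comparison, 9.75% higher and 12.9% lower in the adult cells. In NB_Control against NB_FACS 5 of the 10 passed, Pnpla2 and Pparg higher and Hilpda, Cpt1a and Dgat2 lower, against 29.7% of all genes (15.8% higher, 13.9% lower). With cytokines (NB_Stim against NB_Control) only Pparg passed, 1 of 10, against 3.4% of all genes (1.4% higher, 2% lower). In NB_Stim against NB_FACS 6 of 10 passed, Pnpla2, Ppard and Dgat1 higher and Hilpda, Cpt1a and Dgat2 lower, against 31.1% of all genes (16% higher, 15.1% lower). NB_FACS serves in 3 of the 4 comparisons and NB_Control in 2, so these counts share arrays. An F test over the 4 groups called 9 of the 10, all but Dgat1, against 48.8% of all genes.

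**Figure D1:**
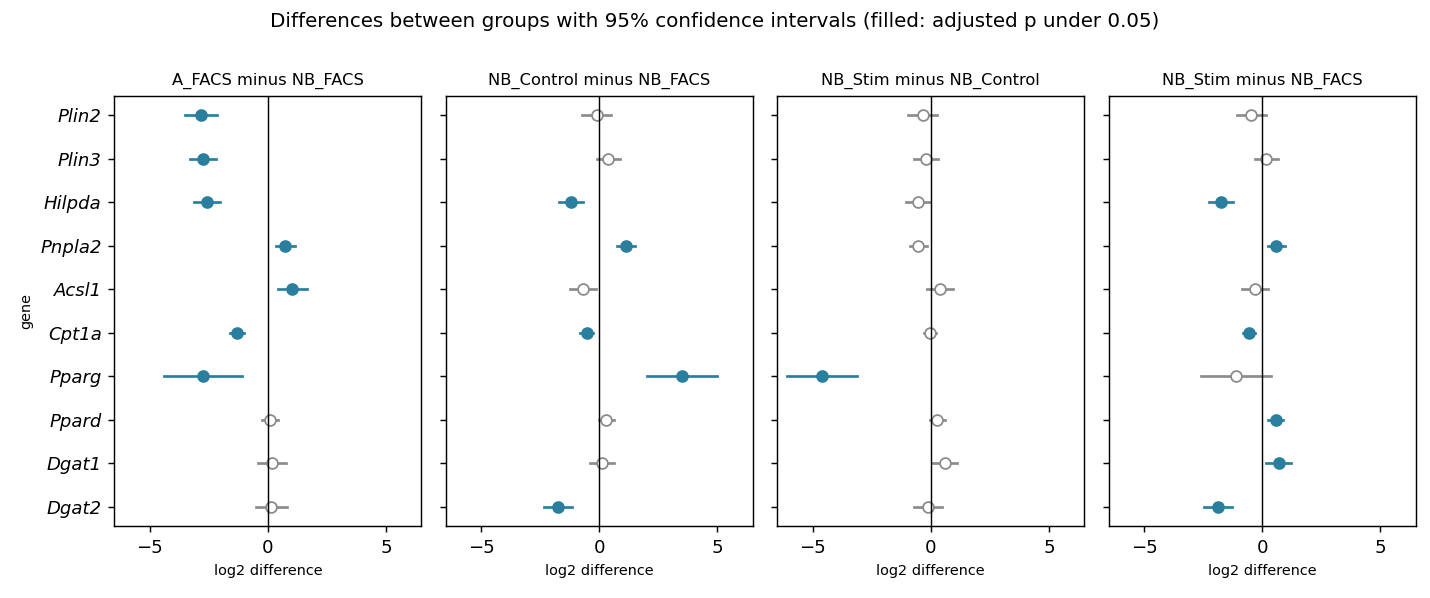
Log2 difference (x axis) of each of the 10 genes (y axis) in the 4 comparisons, with 95% confidence intervals from the fit over 11 arrays; filled points passed an adjusted p of 0.05. Plin2, Plin3 and Hilpda lie at -2.83, -2.76 and -2.58 in A_FACS minus NB_FACS, and Pparg lies at 3.49 in NB_Control minus NB_FACS and at -4.59 in NB_Stim minus NB_Control.

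Plin2 encodes perilipin 2, the coat protein found on droplets of most cells. Its log2 intensity, the mean over its probes after quantile normalisation, was 8.06 and 8.44 in A_FACS, 11.25, 11.22 and 10.75 in NB_FACS, 10.997, 10.91 and 10.96 in NB_Control, and 10.95, 10.96 and 9.94 in NB_Stim. Both adult arrays lay below all 9 newborn arrays, whereas the newborn groups overlapped with each other. The adult cells were 7.09-fold lower than NB_FACS (log2 difference -2.83, SE 0.30, adjusted p = 0.000231). NB_Control differed from NB_FACS by -0.12 (95% interval -0.72 to 0.49) and NB_Stim from NB_Control by -0.34 (-0.95 to 0.27), neither past the test. Both adult arrays were on slide 1, and within that slide the adult difference was -2.98. The lowest newborn value was that of NB_Stim replicate 3, and on slide 1 alone the NB_Stim minus NB_Control difference was -0.00.

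Plin3 encodes perilipin 3, a coat protein that also occurs in the cytosol and moves to nascent droplets. It had log2 intensities of 9.16 and 9.94 in A_FACS, 12.31, 12.19 and 12.42 in NB_FACS, 12.55, 12.45 and 13.05 in NB_Control, and 12.47, 12.57 and 12.42 in NB_Stim. The adult arrays were again below every newborn array, and the fall against NB_FACS was 6.76-fold (log2 difference -2.76, SE 0.25, adjusted p = 8.85e-05). All NB_Control values were above all NB_FACS values, yet the difference of 0.38 (SE 0.22) did not pass (adjusted p = 0.239).

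Hilpda encodes a small droplet protein that is induced by hypoxia and inhibits ATGL. The arrays gave log2 intensities of 10.23 and 10.13 in A_FACS, 12.45, 12.57 and 13.27 in NB_FACS, 11.58, 11.71 and 11.43 in NB_Control, and 11.22, 11.13 and 10.71 in NB_Stim. The 4 groups did not overlap, and the order ran from NB_FACS through NB_Control and NB_Stim to A_FACS. Against NB_FACS, Hilpda fell by 1.19 in NB_Control (SE 0.23, adjusted p = 0.00294), by 1.74 in NB_Stim (SE 0.23, adjusted p = 0.000316) and by 2.58 in A_FACS (SE 0.25, adjusted p = 0.000139) on the log2 scale. The step from NB_Control to NB_Stim, -0.55 (SE 0.23), did not pass (adjusted p = 0.281). On slide 1 NB_Control lay 0.87 and on slide 2 1.84 below NB_FACS.

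Most other hypoxia response genes moved opposite to Hilpda in culture. Of 10 tested, 6 rose and 1 fell in NB_Control against NB_FACS, with a list median of 1.26 against 0.09 over all genes, and 7 rose and 1 fell in NB_Stim against NB_FACS (median 1.62 against 0.11). Adm, which encodes the peptide adrenomedullin, was 8.63-fold higher in NB_Control (adjusted p = 4.85e-05), and Egln3, an oxygen-sensing prolyl hydroxylase, was 39.3-fold higher in NB_Stim (adjusted p = 0.000808) than in NB_FACS. In the adult cells 2 rose and 2 fell.

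**Figure D2:**
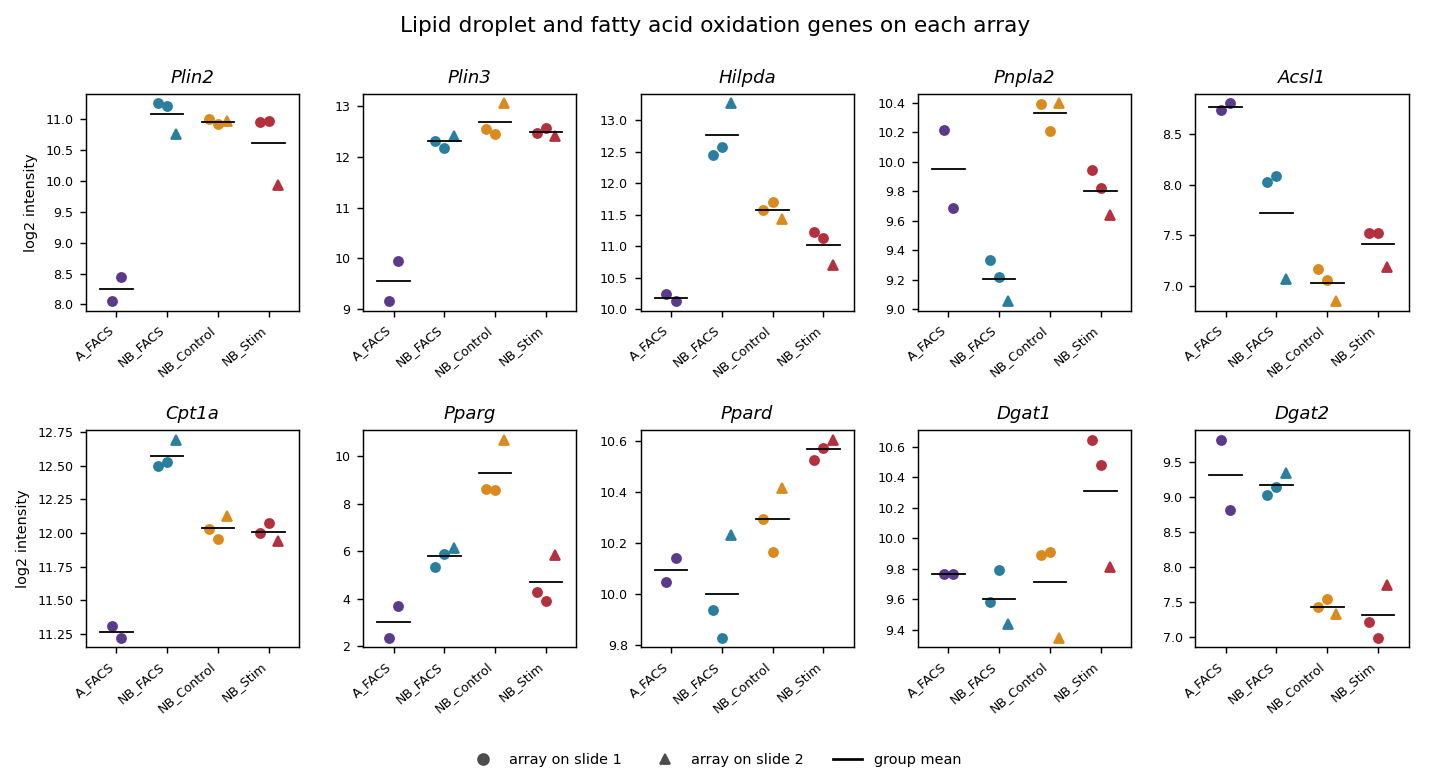
Quantile-normalised log2 intensity (y axes, a scale of its own in each panel) of the 10 genes on each of the 11 arrays by group (x axes); circles are slide 1, triangles slide 2 and bars group means. Plin2 and Plin3 are at 9.94 or below on both adult arrays, and Pparg is at 8.55 or above on all 3 NB_Control arrays and at 6.15 or below on all others.

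Acsl1 encodes an acyl-CoA synthetase of long-chain fatty acids. Its log2 intensity was 8.73 and 8.80 in A_FACS, 8.02, 8.08 and 7.07 in NB_FACS, 7.17, 7.06 and 6.86 in NB_Control, and 7.52, 7.53 and 7.19 in NB_Stim. The adult arrays were the highest, while NB_FACS replicate 3 lay within the range of the cultured arrays. Acsl1 was 2.05-fold higher in A_FACS than in NB_FACS (log2 difference 1.04, SE 0.28, adjusted p = 0.0252), and the call was lost without A_FACS replicate 1 (1.08) or replicate 2 (1.01). The culture difference of -0.69 did not pass (adjusted p = 0.0654) but passed with the replicate block (adjusted p = 0.0124, range over the alternatives 0.000847 to 0.683). It also passed with 75th percentile scaling (adjusted p = 0.0301), the slide block (0.00686), without NB_FACS replicate 3 (0.00151) and on slide 1 arrays only (0.000847).

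Dgat1 and Dgat2 encode the unrelated enzymes of the final step of triglyceride synthesis. The log2 intensity of Dgat2 was 9.82 and 8.81 in A_FACS, 9.03, 9.14 and 9.34 in NB_FACS, 7.43, 7.54 and 7.32 in NB_Control, and 7.22, 6.99 and 7.74 in NB_Stim. All 6 cultured arrays were below all 5 sorted arrays. Dgat2 fell 3.34-fold in NB_Control (log2 difference -1.74, SE 0.27, adjusted p = 0.000827) and 3.62-fold in NB_Stim (-1.85, SE 0.27, adjusted p = 0.000581) against NB_FACS, and A_FACS differed from NB_FACS by 0.15 (95% interval -0.52 to 0.81). For Dgat1 the values were 9.77 and 9.77 in A_FACS, 9.58, 9.79 and 9.44 in NB_FACS, 9.89, 9.91 and 9.35 in NB_Control, and 10.65, 10.48 and 9.81 in NB_Stim. Each group's Dgat1 range met that of a neighbour in the order, and only NB_Stim against NB_FACS passed (0.71, SE 0.24, adjusted p = 0.0457). That call was lost when any of 9 arrays was left out, and with the replicate block NB_Stim minus NB_Control (0.59) passed as well (adjusted p = 0.0458, range over the alternatives 0.026 to 1).

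Pnpla2 encodes ATGL, which removes the first fatty acid from stored triglyceride. On the log2 scale its intensity was 10.21 and 9.69 in A_FACS, 9.34, 9.22 and 9.06 in NB_FACS, 10.39, 10.21 and 10.40 in NB_Control, and 9.94, 9.82 and 9.64 in NB_Stim. NB_FACS was below all other arrays and the NB_Stim arrays were below all NB_Control arrays. Pnpla2 rose 2.18-fold in NB_Control (log2 difference 1.13, SE 0.17, adjusted p = 0.000665), 1.51-fold in NB_Stim (0.60, SE 0.17, adjusted p = 0.0208) and 1.68-fold in A_FACS (0.75, SE 0.19, adjusted p = 0.0175) against NB_FACS. The difference of -0.53 between NB_Stim and NB_Control had an unadjusted p of 0.00998 and did not pass over all genes (adjusted p = 0.141). The NB_Stim call was lost without NB_FACS replicate 2 or 3 or NB_Stim replicate 1 or 2 (0.52 to 0.60), and the adult call without A_FACS replicate 1 (0.48).

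Cpt1a encodes the liver form of carnitine palmitoyltransferase 1, the entry point of long-chain fatty acids into mitochondrial oxidation. Its log2 intensity was 11.31 and 11.22 in A_FACS, 12.50, 12.53 and 12.69 in NB_FACS, 12.03, 11.96 and 12.12 in NB_Control, and 11.996, 12.08 and 11.94 in NB_Stim. NB_FACS was highest, A_FACS lowest, and the cultured groups lay between them and overlapped with each other. Cpt1a fell 1.45-fold in NB_Control (log2 difference -0.54, SE 0.12, adjusted p = 0.00636), 1.48-fold in NB_Stim (-0.57, SE 0.12, adjusted p = 0.00465) and 2.47-fold in A_FACS (-1.30, SE 0.13, adjusted p = 0.00016) against NB_FACS. NB_Stim and NB_Control differed by -0.03 (95% interval -0.29 to 0.23). NB_FACS also had the highest erythroid sum given above, whose part in the values of Cpt1a and Hilpda was not tested.

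Pparg encodes PPARγ, the receptor that directs fat cell formation and lipid uptake in macrophages, and it had the widest range of the 10 genes. Its log2 intensity was 2.37 and 3.71 in A_FACS, 5.33, 5.90 and 6.15 in NB_FACS, 8.62, 8.55 and 10.67 in NB_Control, and 4.29, 3.93 and 5.85 in NB_Stim. All NB_Control arrays stood above all others, both adult arrays were lowest, and NB_Stim overlapped with NB_FACS. The probe was well above background on 9 of 11 arrays, missing on 1 of 2 A_FACS and 1 of 3 NB_Stim arrays. Its sequence in the scanner files begins, with the first 30 bases shown to identify the only probe behind these values, as follows.
Pparg probe: gaaagtcccacccgctgacaacgtgttcct

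Pparg rose 11.2-fold in NB_Control against NB_FACS (log2 difference 3.49, SE 0.66, adjusted p = 0.00294) and was 24.1-fold lower in NB_Stim than in NB_Control (-4.59, SE 0.66, 95% interval -6.07 to -3.11, adjusted p = 0.00489). Replicate 3 set much of the size: without NB_Control replicate 3 the culture difference was 2.78 and the cytokine difference -3.88, and without NB_Stim replicate 3 the latter was -5.20. Both calls held there. Both were lost by a Tukey test whose p-values were adjusted here over all genes (adjusted p = 0.0584 for culture, range over the alternatives 0.000188 to 0.0584, and 0.12 for cytokines). The study's methods name Dunnett's or Tukey's test and mention no adjustment over genes. The Tukey result for Pparg without that adjustment is not given here. The cytokine difference was -4.48 on slide 1 and -4.82 on slide 2, and the culture difference was 2.97 and 4.52. Against NB_FACS, NB_Stim differed by -1.10 (95% interval -2.58 to 0.38, adjusted p = 0.244). The adult cells were lower than NB_FACS (-2.75, SE 0.74, adjusted p = 0.0245), with 1 of the 2 adult values not well above background and so uncertain in size, a call lost without A_FACS replicate 1 (-2.10) or NB_FACS replicate 2 (-2.70) or 3 (-2.57). With normexp background correction the adult difference was -0.78 (adjusted p = 0.282, range over the alternatives 0.00515 to 0.282). NB_Control replicates 1 and 2, and likewise those of NB_Stim, correlated at 0.995 and 0.994 over all genes, and with each such pair averaged to 1 sample the cytokine difference was -4.65 and no longer passed (adjusted p = 0.0608, range over the alternatives 0.00037 to 0.12).

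Genes that PPARγ is known to activate were read beside it. Fabp4 encodes a fatty acid carrier and Cd36 a fatty acid and lipoprotein receptor, and both were singled out after their values were seen. Fabp4 had log2 intensities of 3.18 and 3.07 in A_FACS, 4.47, 4.77 and 4.93 in NB_FACS, 9.20, 9.27 and 9.35 in NB_Control, and 7.42, 7.43 and 6.76 in NB_Stim. The groups did not overlap. It was 23.4-fold higher in NB_Control than in NB_FACS (adjusted p = 6.87e-07) and 4.20-fold lower in NB_Stim than in NB_Control (adjusted p = 0.000531). Its 2 probes differed in size. With only the probe well above background on all arrays Fabp4 was 3.20-fold higher in NB_Control than in NB_FACS (adjusted p = 0.00113, range over the alternatives 2.94e-08 to 0.00113), and the cytokine difference was -0.98 and did not pass (adjusted p = 0.0923, range over the alternatives 2.21e-05 to 0.0923). Cd36, the mean of 6 probes, had 3.58 and 3.77 in A_FACS, 4.80, 4.53 and 4.602 in NB_FACS, 8.62, 8.72 and 9.67 in NB_Control, and 5.73, 5.73 and 6.002 in NB_Stim. It was 20.6-fold higher in NB_Control (adjusted p = 2.57e-06) and 9.09-fold lower with cytokines (adjusted p = 0.000209). Several of its probes were near background outside NB_Control, and with only those well above background on all arrays it was 8.22-fold higher in NB_Control (adjusted p = 3.05e-06, range over the alternatives 8.64e-07 to 0.00039) and 5.28-fold lower with cytokines (adjusted p = 0.000106, range 5.68e-05 to 0.0117). Of these, 1 probe had group means of 4.93 to 5.07 throughout. Of the 10 tested genes listed as PPAR targets, 3 rose and 3 fell in NB_Control against NB_FACS (median -0.09 against 0.09 over all genes), and 2 rose and 1 fell with cytokines.

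Plin5, a perilipin that ties droplets to mitochondria, was not well above background on any cultured array and, against the background floor, was at least 5.45-fold lower in NB_Control (adjusted p = 0.00128) and at least 5.08-fold lower in NB_Stim (adjusted p = 0.00091) than in NB_FACS, where it was at 5.45 to 5.93. It too was singled out after its values were seen, and its probe passed the filter only through NB_FACS, so these p-values are no independent support. Bounds set the mean of the brighter group against the mean, over the arrays of the dimmer group, of the lowest signal well above background or the probe's own signal, whichever was higher.

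The 6 border macrophage markers did not move together. Their summed level was 14.8 to 16.1 in NB_Control, 13.4 to 13.6 in NB_FACS, 13.6 to 14.7 in NB_Stim and 8.68 to 9.60 in A_FACS. In NB_Control against NB_FACS 1 rose and 2 fell: Pf4 was at 15.13 against 10.42 (adjusted p = 0.000825), Lyve1 at 3.02 against 7.82 (adjusted p = 0.000574) and Cd163 at 3.69 against 6.76 (adjusted p = 0.0313), with Lyve1 above background on 0 and Cd163 on 1 of the 3 NB_Control arrays. Mrc1 was at 13.33 in NB_Control, 13.15 in NB_FACS and 8.08 in NB_Stim, a difference of 0.17 in culture that did not pass (adjusted p = 0.563) and of -5.25 (log2) with cytokines that did (adjusted p = 3.59e-06). Their part in the Pparg values was not tested.

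Ppard encodes PPARδ, a receptor expressed in most tissues that promotes fatty acid oxidation. Its log2 intensity was 10.05 and 10.14 in A_FACS, 9.94, 9.83 and 10.23 in NB_FACS, 10.30, 10.17 and 10.42 in NB_Control, and 10.53, 10.57 and 10.60 in NB_Stim. The NB_Stim arrays were above all others. NB_FACS overlapped with A_FACS and with NB_Control, while both A_FACS arrays lay below all NB_Control arrays. Ppard rose 1.48-fold in NB_Stim against NB_FACS (log2 difference 0.57, SE 0.14, adjusted p = 0.0107). The call was lost with 75th percentile scaling (0.42, adjusted p = 0.0706) and with cultured replicates 1 and 2 averaged (0.58, adjusted p = 0.0547), over a range of 0.0022 to 0.0706 among the alternatives. The step of 0.28 from NB_Control to NB_Stim did not pass (adjusted p = 0.4). Ppara, the third receptor of the family, was dim: it was well above background on 1 of 3 arrays in each newborn group and on 2 of 2 in A_FACS, and it passed no comparison.

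Plin2, Acsl1, Pnpla2 and Dgat1 were each measured by a pair of probes, and for Plin2 and Acsl1 the probes disagreed. The probe matched to the curated Plin2 transcript was the brighter and lay 0.51 higher in NB_Control than in NB_FACS, while that of a predicted Plin2 transcript lay at -0.74, neither past the test (adjusted p = 0.207 and 0.14). In the adult cells both fell, by 3.49 (adjusted p = 0.000101) and 2.16 (adjusted p = 0.00353). For Acsl1 the brighter probe differed by -0.10 and the dimmer by -1.28 between NB_Control and NB_FACS, and by 0.65 and 1.43 between A_FACS and NB_FACS, of which only 0.65 passed (adjusted p = 0.0316). The dimmer Acsl1 probe was at 5.86, 6.04 and 3.98 in NB_FACS, so that replicate 3 on slide 2 set the spread. Both probes of Pnpla2 and of Dgat1 had the same sign in all 4 comparisons, but some calls rested on the brighter probe. Both Pnpla2 probes passed in NB_Control minus NB_FACS (adjusted p = 0.00323 and 0.00144). In NB_Stim minus NB_FACS the brighter was at 0.82 (adjusted p = 0.0205) and the dimmer at 0.38 (0.146). In A_FACS minus NB_FACS they were at 0.89 (0.0316) and 0.60 (0.0583). For Dgat1 in NB_Stim minus NB_FACS the values were 0.87 (0.0281) and 0.54 (0.138). By their accessions, both Acsl1 probes, the brighter Dgat1 probe and the only Cpt1a probe were matched to predicted transcripts. The brighter Pnpla2 probe was matched to a non-coding transcript. The first 30 bases of the disagreeing probes are given to tell them apart, and where they lie in the transcripts was not analysed here.
Plin2 brighter probe: agaaaagcagcttcttagaaccaagggcct
Plin2 dimmer probe: atagatactgctcgaagcttctgctttctg
Acsl1 brighter probe: gtcgctaatttgtcacaacggggttttgaa
Acsl1 dimmer probe: gccgttatgaaaatgcttcctcttggaact

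**Figure D3:**
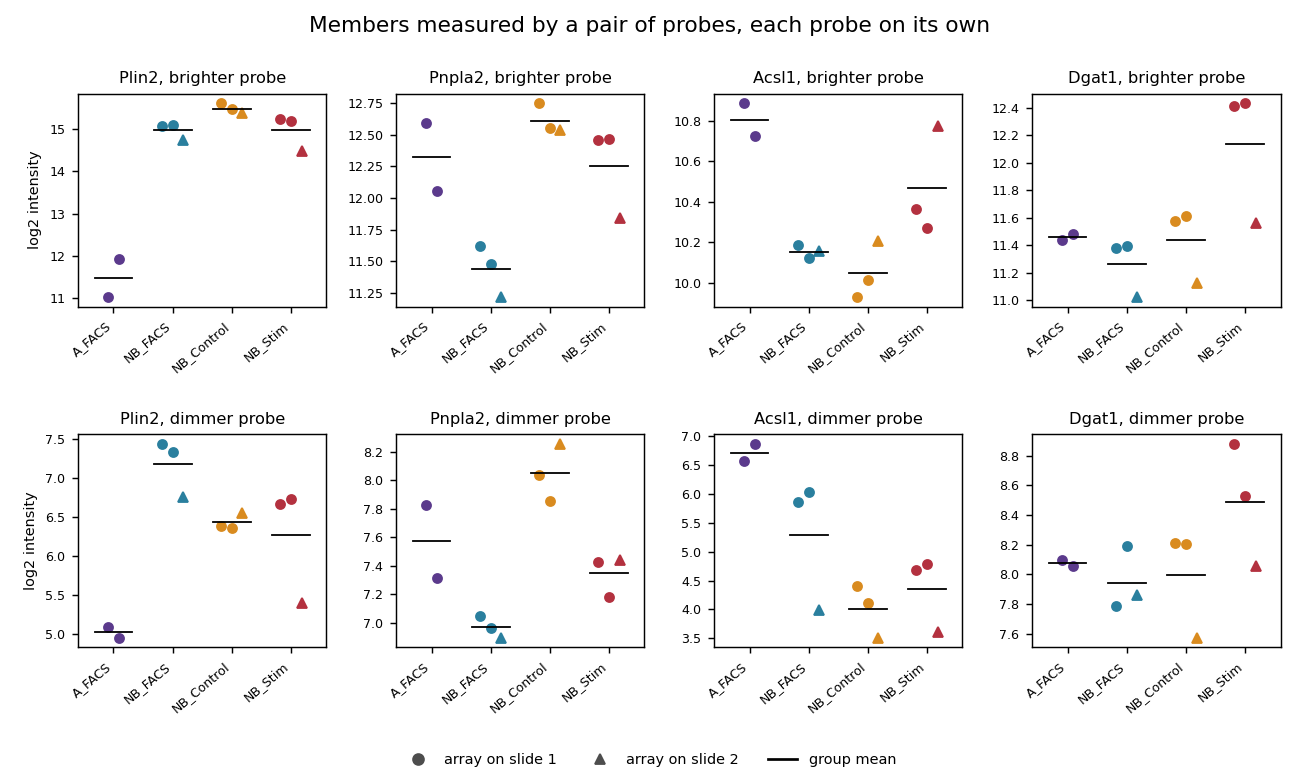
Quantile-normalised log2 intensity (y axes) of each probe of Plin2, Pnpla2, Acsl1 and Dgat1 on the 11 arrays by group (x axes), brighter probe above and dimmer below; circles are slide 1, triangles slide 2 and bars group means. The brighter Plin2 probe reaches 15.61 in NB_Control, its highest group, while the dimmer one is highest in NB_FACS at 7.43.

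The other genes of these pathways, 133 on 11 lists, gave 117 tested genes. In NB_Control against NB_FACS 47 passed (40.2%, 35 higher and 12 lower), with a median difference of 0.12 against 0.09 over all genes. Lipolysis gave 3 higher and 1 lower of 8, and Lipa, the lysosomal acid lipase, rose 5.99-fold (adjusted p = 4.14e-06). In glycerolipid and sterol ester synthesis, with 5 higher and 2 lower of 13, Soat1, which makes cholesterol esters, rose 3.91-fold (adjusted p = 0.000145) and Agpat2, an earlier enzyme of the triglyceride route, 3.24-fold (adjusted p = 1.17e-05). Fatty acid uptake and binding had 4 higher and 0 lower of 8, among them the carrier Fabp5 (8.54-fold, adjusted p = 0.0112). Mitochondrial beta-oxidation had 1 higher and 3 lower of 14, a share near the 29.7% of all genes: Acadvl, the very long-chain dehydrogenase, rose by 0.62 (adjusted p = 0.00571) and Hadha, a subunit of the trifunctional protein, fell by 0.57 on the log2 scale (adjusted p = 0.00582). Downstream of Cpt1a in the carnitine shuttle, Cpt2 rose 2.33-fold (adjusted p = 0.00139), opposite to Cpt1a. Rxra, the partner receptor of PPARs, rose 2.65-fold (adjusted p = 1.89e-05).

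With cytokines 7 of the 117 passed against NB_Control (5.98%, 3 higher and 4 lower, median -0.00 as over all genes). Beside Fabp4 and Cd36, Lipa fell 2.04-fold (adjusted p = 0.00857) and the acyltransferase Agpat4 1.87-fold (adjusted p = 0.0107). Cebpa, a myeloid and fat cell transcription factor, rose 2.16-fold (adjusted p = 0.0299), and the mitochondrial carriers Ucp3 and Ucp2 rose 2.76-fold (adjusted p = 0.0494) and 1.49-fold (adjusted p = 0.0385). Leaving out 1 array at a time lost the call of Cebpa for 4 arrays (replicates 1 and 2 of both cultured groups), of Ucp2 for 7 and of Ucp3 for 9 of the 11 arrays, and that of Agpat4 without NB_Stim replicate 1. None of 14 mitochondrial beta-oxidation genes, 9 carnitine shuttle genes or 14 droplet coat genes passed in limma's test, with 0, 2 and 1 at an unadjusted p under 0.05.

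Against NB_FACS, NB_Stim had 53 of 117 past the test (45.3%, 37 higher and 16 lower, median 0.16 against 0.11). G0s2, an inhibitor of ATGL, rose 7.70-fold (adjusted p = 0.00312), Acsbg1, an acyl-CoA synthetase, 9.31-fold (adjusted p = 0.000938), and Pex11a, which acts in peroxisome division, 5.31-fold (adjusted p = 2.58e-05). Acadl, the long-chain dehydrogenase, fell by 0.56 on the log2 scale (adjusted p = 0.00586).

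In A_FACS against NB_FACS 42 of 117 passed (35.9%, 13 higher and 29 lower, median -0.07 against -0.01). Mitochondrial beta-oxidation had 0 higher and 6 lower of 14, with Etfb, a subunit of the electron carrier, 2.75-fold lower (adjusted p = 0.00293) and Acadl 1.97-fold lower (adjusted p = 0.000914). The shuttle carrier Slc25a20 was 1.68-fold lower (adjusted p = 0.00609). Fatty acid uptake and binding had 0 higher and 6 lower of 8, with the lipase Lpl 7.05-fold lower (adjusted p = 0.0094) and Dbi, which encodes the acyl-CoA binding protein, 2.77-fold lower (adjusted p = 0.00407). Angptl4, an inhibitor of lipoprotein lipase, was 21.0-fold lower (adjusted p = 0.000108), and the thioesterase genes Acot1 and Acot2, near-identical neighbours whose probes may share signal, were 4.72-fold and 6.96-fold lower (adjusted p = 2.79e-05 and 1.2e-05). Acot1 and Acot2 were also 3.40-fold and 3.88-fold lower in NB_Control than in NB_FACS (adjusted p = 1.58e-05 and 1.3e-05). The other genes of droplet coat and assembly had 1 higher (Plin1, 0.66, adjusted p = 0.0216) and 2 lower of 14, with a median of 0.02. Peroxisomal beta-oxidation had 0 of 10 past limma's test in the adult cells, with 2 at an unadjusted p under 0.05.

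**Figure D4:**
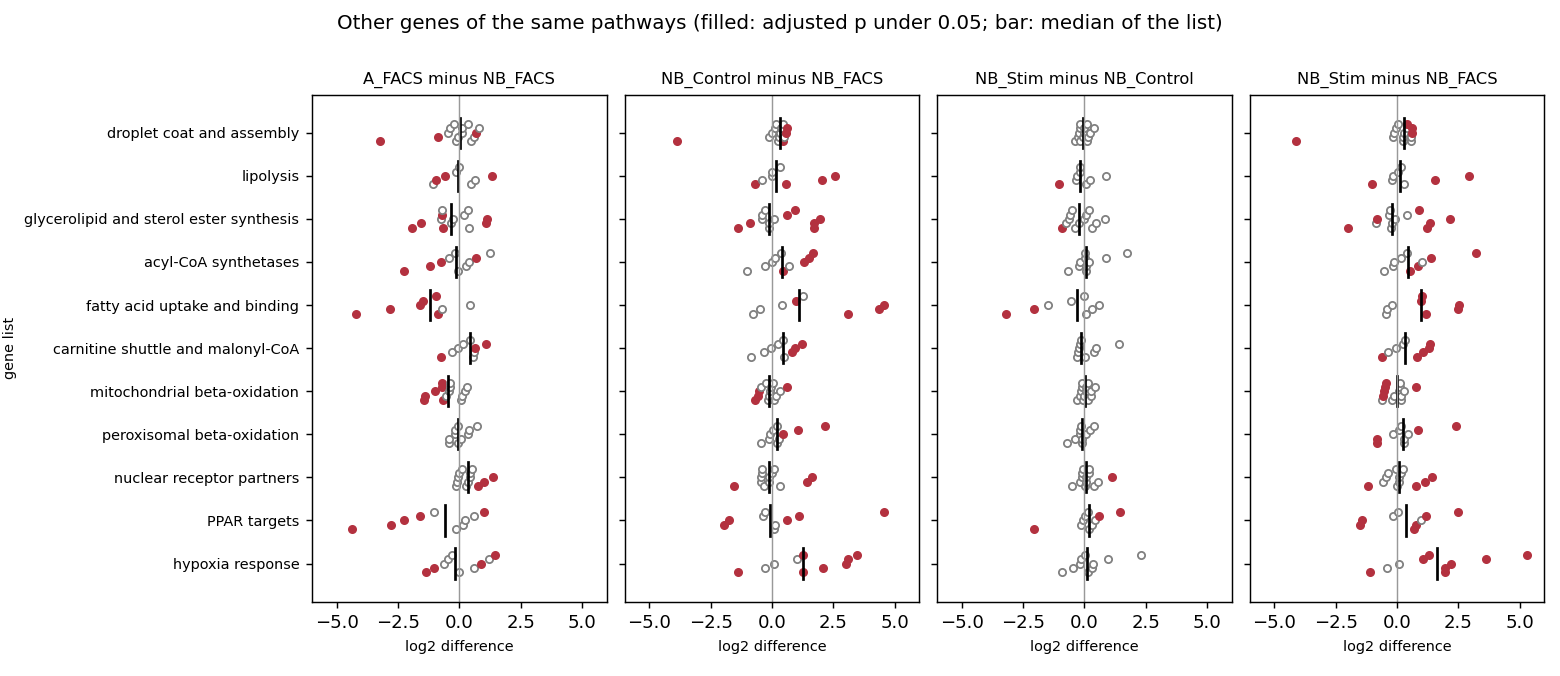
Log2 difference (x axis) of every tested gene on the 11 pathway lists (y axis) in the 4 comparisons; filled points passed an adjusted p of 0.05 and vertical bars are list medians. In A_FACS minus NB_FACS the fatty acid uptake list has a median of -1.22, and in NB_Control minus NB_FACS it has a median of 1.12.

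Across the 11 arrays, Plin2 and Plin3 had a Pearson correlation of 0.93 and Hilpda and Cpt1a one of 0.94, given as descriptions of arrays that share 4 groups. The genes most like Plin2 were Septin9 (0.99), Ten1 (0.99) and Ddx3y (0.98). Ddx3y lies on the Y chromosome and was at 1.13 in A_FACS, from female mice, and at 8.19 to 10.07 in the means of the newborn groups, so it too separates the adult from the newborn arrays. Hilpda was most like Me2, Timm50 and Gins2 (0.98 to 0.99), and Cpt1a most like Cks1b, Nhp2 and Rad18 (0.98), each highest in NB_FACS. Pparg was most like Ahr (0.98), Chst14 (0.97) and Dusp23 (0.97), and Ahr was at 4.78 in A_FACS, 6.49 in NB_FACS, 8.56 in NB_Control and 6.20 in NB_Stim.

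The 250 bases before the annotated start sites were searched on both strands because several members moved together in the same comparison. RefSeq windows of GRCm38.p6 were given for 8 of the 10 genes, 12 windows in all. AGGTCA, the core of nuclear receptor sites, was in 4 of the 12 windows and in 14% of all 32851 windows, and the DR1 repeat of it with a single base between, the known PPAR element, was in 0 of 12 and 0.0335% of all. ACGTG, the core of the hypoxia element, was in 2 of 12 and 16.6% of all, CACGTG, which contains it, in 0 of 12 and 6.02%, and the SMAD palindrome GTCTAGAC in 0 of 12 and 0.167%. The 6 windows with a match are shown 5′ to 3′ in the direction of transcription, with the match in capitals, TGACCT and CACGT being AGGTCA and ACGTG on the other strand. In Pparg window 2 the match lies 4 to 9 bases before the start site, in window 1 23 to 28 bases, in Cpt1a 89 to 94 bases and in Plin2 213 to 218 bases.
Plin2 (chr4:86670060-86670309, - strand): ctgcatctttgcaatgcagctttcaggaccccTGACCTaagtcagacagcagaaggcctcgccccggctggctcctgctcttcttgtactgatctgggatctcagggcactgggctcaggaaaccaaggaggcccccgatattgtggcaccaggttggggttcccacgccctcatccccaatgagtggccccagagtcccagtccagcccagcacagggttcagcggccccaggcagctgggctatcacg
Cpt1a (chr19:3323051-3323300, + strand): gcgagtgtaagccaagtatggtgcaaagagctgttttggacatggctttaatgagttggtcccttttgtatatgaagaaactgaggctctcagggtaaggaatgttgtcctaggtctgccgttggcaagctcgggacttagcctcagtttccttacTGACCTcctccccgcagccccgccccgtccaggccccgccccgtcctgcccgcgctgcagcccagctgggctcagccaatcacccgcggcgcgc
Pparg window 1 (chr6:115360894-115361143, + strand): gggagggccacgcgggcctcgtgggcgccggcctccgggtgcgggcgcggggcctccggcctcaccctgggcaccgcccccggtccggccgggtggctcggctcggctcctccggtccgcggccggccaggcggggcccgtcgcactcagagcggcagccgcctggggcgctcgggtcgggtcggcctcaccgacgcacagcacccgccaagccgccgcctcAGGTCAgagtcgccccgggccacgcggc
Pparg window 2 (chr6:115362099-115362348, + strand): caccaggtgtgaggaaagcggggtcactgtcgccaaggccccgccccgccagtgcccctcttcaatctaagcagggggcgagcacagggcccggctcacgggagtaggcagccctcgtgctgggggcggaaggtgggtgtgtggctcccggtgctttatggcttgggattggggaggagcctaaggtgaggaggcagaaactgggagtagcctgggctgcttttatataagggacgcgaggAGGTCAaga
Hilpda window 2 (chr6:29272376-29272625, + strand): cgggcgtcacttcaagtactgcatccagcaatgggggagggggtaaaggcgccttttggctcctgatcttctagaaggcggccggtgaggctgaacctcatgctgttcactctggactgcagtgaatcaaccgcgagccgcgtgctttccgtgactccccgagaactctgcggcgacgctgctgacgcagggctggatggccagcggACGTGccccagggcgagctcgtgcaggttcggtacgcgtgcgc
Ppard (chr17:28232504-28232753, + strand): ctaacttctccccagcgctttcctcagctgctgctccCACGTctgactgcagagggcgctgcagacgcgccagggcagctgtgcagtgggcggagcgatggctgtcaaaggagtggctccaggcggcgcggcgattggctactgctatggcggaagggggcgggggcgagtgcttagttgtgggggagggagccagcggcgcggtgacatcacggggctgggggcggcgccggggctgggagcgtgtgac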

How the data were processed

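RNA was hybridised to 11 single-colour Agilent mouse arrays. The authors deposited the scanner output of Agilent Feature Extraction (11.5.1.1 per the file headers) as linear intensity per spot, and a table of values. All 62927 rows of that table matched the linear processed intensity of the scanner output within a relative difference of 1e-05. The log2 transformation and the quantile normalisation were done here. Of 62976 spots, 1439 were controls. Spots of a probe were averaged, and 138 probes were dropped for outlier flags. RefSeq accessions named 36264 of 60037 probes (60.4%). A probe was kept if it was well above background on all arrays of at least 1 group, which left 28037 probes, and the mean over probes gave 19565 genes. 0 spots were saturated. The number of arrays limits the precision.

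Groups came from the sample titles. Differences were tested with limma 3.58.1 (R 4.3.3, data.table, version 1.17.8) over all 11 arrays with 7 residual degrees of freedom, two-sided, with Benjamini-Hochberg adjustment over all genes tested, called under 0.05. Figures used matplotlib 3.10.9. The study's methods define n as independent biological replicates; the labels do not say whether cultured replicates 1 and 2, the most alike arrays, came from separate cultures, so an alternative averaged them. The genes, pathway lists and marker lists were chosen with earlier results of these data known. All 10 genes are named. From each pathway list, at most 3 called genes per comparison with the largest difference were eligible if groups did not overlap and probes were above background on all their arrays; the text gives some of those whose call held when each array was left out, and every called gene with cytokines. Deviations of arrays with the same replicate number correlated at 0.11 to 0.49 in all newborn pairings. Replicate 1 with replicate 2 of another group, all on slide 1, correlated at 0.19 to 0.36. Replicate 3, the slide 2 array, correlated with replicates 1 and 2 of other groups at -0.45 to -0.18. These correlations therefore do not show a pairing by replicate number. Fits with the replicate number or the slide as a block were made as alternatives. The fit was tested on simulated data for NB_Stim minus NB_Control with 19565 genes: it recovered 44 of 100 genes changed by 1 and 82 of 100 changed by 2 on the log2 scale, with 10 false calls.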

Additional observations from a re-analysis of the deposited data

How the results depend on the processing

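Over the alternatives, 926 of 996 values of the 10 genes kept their direction and side of the threshold, 41 lost a call, 14 gained one and 15 changed sign, and of 2521 values of other pathway genes 2269 kept both, 251 lost a call and 1 changed sign. Against a main count of 1 of the 10 genes with cytokines, the count was 0 with probes well above background on all arrays (where Pparg was not tested). It was also 0 with cultured replicates 1 and 2 averaged and by the Tukey test adjusted over all genes. Blocking on the replicate number or on the slide gave 2. So did the use of slide 1 arrays only, an alternative chosen after seeing the data. In NB_Stim minus NB_FACS it went from 6 to 3 with averaged replicates and to 2 with a log2 difference of at least 1 required. In A_FACS minus NB_FACS it went from 7 to 4 by the Tukey test and to 4 without A_FACS replicate 1. Leaving out each array in turn gave 5 to 7 genes in NB_Control minus NB_FACS, 1 to 1 with cytokines, 4 to 6 in NB_Stim minus NB_FACS, 4 to 7 in A_FACS minus NB_FACS and 8 to 9 in the F test. The replicate block gave 6, 2, 6 and 7 in the 4 comparisons in that order, and apart from the Acsl1 and Dgat1 calls gained it changed no call of the 10 genes, while among the named pathway genes Acsbg1 in NB_Control minus NB_FACS lost its call.

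Pathway gene counts in NB_Control minus NB_FACS went from 47 to 29 (averaged), 29 (Tukey) and 30 (log2 difference of at least 1), and to 34 to 50 leaving out arrays. With cytokines they went from 7 to 4 (no filter on dim probes), 11 (slide block), 4 (only the groups compared), 2 (averaged), 2 (Tukey) and 3 to 8 leaving out arrays, being 4 without NB_Control replicate 1 or 2 or NB_Stim replicate 2 and 3 without NB_Stim replicate 1. In NB_Stim minus NB_FACS they went from 53 to 32 (Tukey), 33 (log2 difference of at least 1) and 40 to 56 leaving out arrays. In A_FACS minus NB_FACS they went from 42 to 26 (only the groups compared), 19 (Tukey), 24 (log2 difference of at least 1) and 23 to 45 leaving out arrays, with 23 without A_FACS replicate 1.

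Signs changed as follows, all in differences past no test except that of Mgll. Plin2 in NB_Control minus NB_FACS was 0.02 with normexp and 0.51 with the brightest probe. With cytokines, Plin2 was 0.00 without NB_Stim replicate 3 (range leaving out arrays -0.51 to 0.00) and 0.00 on slide 1, Plin3 0.02 on slide 1, Cpt1a 0.01 without NB_Control replicate 3 (range -0.07 to 0.01) and 0.04 on slide 1, and Dgat2 0.02 with averaged replicates and 0.05 without NB_Stim replicate 2 (range -0.33 to 0.05). In NB_Stim minus NB_FACS, Plin3 was -0.02 with 75th percentile scaling, and with the brightest probe Acsl1 was 0.32 and Mgll 0.03. In A_FACS minus NB_FACS, Ppard was -0.03 with 75th percentile scaling, Dgat1 -0.01 under the replicate block and -0.01 under a slide block, and Dgat2 -0.36 without A_FACS replicate 1 (range -0.36 to 0.65). The causes were not tested.

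Over all genes with cytokines, 666 passed, against 1192 when blocking on the replicate number, 1474 when blocking on the slide, 118 with averaged replicates, 183 by the Tukey test, 1008 with normexp and 1029 on slide 1. By the Tukey test 3548 of 5813, 3621 of 6086 and 2015 of 4437 were called in the other comparisons, and requiring a log2 difference of at least 1 left 3160, 3217, 2409 and, with cytokines, 425. Restricting the fit to the groups compared left 2925 in A_FACS minus NB_FACS, and leaving out A_FACS replicate 1 left 2285. Leaving out NB_Control replicate 1 or 2 or NB_Stim replicate 1 or 2 left 332, 333, 297 and 309 with cytokines. Groups of 2 or 3 arrays and probes near background, such as that of Pparg in adult cells, limit these results.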
